A study of Mus musculus with 12 samples.

Results

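Infarcted left ventricles of mice with and without a Periostin-driven Cre recombinase were compared 4 days after surgery, using 3 Cre-positive and 3 Cre-negative libraries, 6 of the 12 libraries in the series. The members were the libraries whose labels give MI surgery, and all genes of the deposited expected-count files entered the comparison. MI, myocardial infarction, was produced by tying off the left anterior descending coronary artery for good. Every animal carried floxed Yap alleles, ate a tamoxifen citrate diet from the time of surgery and was 6 to 10 weeks old. Cre-positive animals had 1 copy of the tamoxifen-inducible recombinase MerCreMer at the endogenous Periostin (Postn) locus, and their Cre-negative siblings had wildtype Periostin. Tamoxifen and the floxed allele were therefore shared by both groups, whereas the altered Postn locus and the recombination of Yap went together and cannot be told apart. No group of Cre-positive animals with unfloxed Yap was analysed here. The other 6 libraries came from the same genotypes after sham surgery, 3 in each group, and were used to share the estimate of spread and as background. RNA came from whole left ventricle, and the labels give only a number for each replicate, so p-values measure the spread between these samples.

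YAP, encoded by Yap1, is a transcriptional coactivator that the kinases of the Hippo pathway keep out of the nucleus. In the nucleus it works with TEAD proteins, which bind DNA, and raises the transcription of genes for adhesion, matrix and growth. After an infarction, resting cardiac fibroblasts turn into dividing, contractile myofibroblasts, which secrete collagen and periostin and build the scar, while macrophages clear dead muscle. Recombination under the Postn promoter is directed at cells that express periostin, and not, by design, at muscle cells, endothelial cells or leukocytes. A floxed gene that is cut can still be transcribed, and gene-level counts of a whole ventricle do not resolve which exons were read.

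Total expected counts were 13609502 to 15176286 in the 6 MI libraries and 10257675 to 13608483 in the sham libraries. Of the 17471 genes listed, 15763 to 16016 had a count above 0 in an MI library, and 13678 were tested. The tissue label was checked against markers. All 18 cardiomyocyte markers were read in every MI library, and the atrial peptide gene Bmp10 was at 0 in all 6. The atrial light chain gene Myl7 spread widely, at 0.116 to 27.5 CPM (counts per 1000000, scaled by TMM). Of 8 atrial markers tested, 5 were higher and 3 lower in Cre-positive MI hearts (median log2 difference 0.35). Uneven atrial content of the samples was not tested. Y-linked genes were read in 3 of 3 Cre-negative MI libraries but in 1 of 3 Cre-positive MI libraries (replicate 1), and in 2 of 3 Cre-negative but 0 of 3 Cre-positive sham libraries, so the sexes were spread unevenly over the genotypes. Their part in the results was not tested beyond a fit with Y-linked reads as a covariate. One sham library, Cre-positive replicate 2, stood apart on the second principal component at 46.5, against -18.1 to 12.3 in the other 11 libraries. The values after sham surgery below are given with and without it. The first component held 76.6% of the variance and parted MI libraries (-65.4 to -33) from sham libraries (39.7 to 62.2). Within MI, Cre-positive libraries lay at -39.7, -33 and -43.2, nearer to sham, and Cre-negative ones at -65.4, -57.4 and -55. The part of this shared axis in the list differences below was not tested.

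Postn, the matricellular protein gene whose locus carries the recombinase, was read in all 6 MI libraries. Its level was 603, 628 and 674 CPM in Cre-positive libraries 1 to 3 and 1590, 1528 and 1729 CPM in Cre-negative libraries 1 to 3. The highest Cre-positive library thus lay below the lowest Cre-negative one, a log2 difference of -1.35 ± 0.28 (SE, n = 3 per group). edgeR's quasi-likelihood test did not call it (adjusted p = 0.202). With the 6 MI libraries alone edgeR called it (adjusted p = 0.00261), and without Cre-positive sham replicate 2 it did so too (adjusted p = 0.0136), within a range of 0.00261 to 0.73 over the edgeR alternatives. DESeq2 called Postn in all 16 of its fits, with an adjusted p of 0.00113 on all 12 libraries and of 0.0312 at most. The authors' deposited table gives a log2 fold change of -1.33 with an adjusted p of 8.88e-48. The recombinase sits in this gene, so the effect of the engineered locus on Postn and a difference in the cells that express it cannot be told apart.

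Yap1, the floxed gene, had levels of 93.9, 92.9 and 91.1 CPM in the Cre-positive and 84.6, 96.4 and 94.0 CPM in the Cre-negative libraries after MI. The groups overlapped, and the log2 difference was 0.02 ± 0.09 (SE, n = 3 per group, edgeR adjusted p = 0.971). Without Cre-negative replicate 1 it was -0.04. The authors' deposited table gives 0.03 with an adjusted p of 0.985. Wwtr1, which encodes the YAP paralogue TAZ, was at 125, 111 and 108 CPM against 120, 117 and 120 CPM (-0.06 ± 0.12). Its sign turned to 0.01 with Y-linked reads as a covariate. Reads of the floxed gene thus did not separate the genotypes in whole ventricle.

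The promoters of both engineered genes are shown because the recombinase is under the control of the one and the other was the target. In GRCm38.p6, the RefSeq assembly whose coordinates mm10 uses, Postn lies on chromosome 3 from 54359267 to 54391041 on the plus strand, and Yap1 on chromosome 9 from 7931999 to 8004638 on the minus strand. The 250 bases before an annotated RefSeq start of each, chr3:54360857-54361106 and chr9:8004597-8004846, are given 5′ to 3′ on the strand of the gene, with the core TEAD motif GGAATG (searched on both strands, the other strand reading CATTCC) in capitals. Aldh6a1 (chr12:84451025-84451274) and Pdk2 (chr11:95040876-95041125), both on the minus strand, follow as the genes with a motif among the 16 with the most stable differences described below. They were chosen after their values were seen.
Postn: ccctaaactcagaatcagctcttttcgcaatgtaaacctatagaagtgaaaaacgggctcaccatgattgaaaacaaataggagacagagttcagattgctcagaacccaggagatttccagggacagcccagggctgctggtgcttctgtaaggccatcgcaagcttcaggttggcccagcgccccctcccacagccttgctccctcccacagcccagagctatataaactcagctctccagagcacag
Yap1: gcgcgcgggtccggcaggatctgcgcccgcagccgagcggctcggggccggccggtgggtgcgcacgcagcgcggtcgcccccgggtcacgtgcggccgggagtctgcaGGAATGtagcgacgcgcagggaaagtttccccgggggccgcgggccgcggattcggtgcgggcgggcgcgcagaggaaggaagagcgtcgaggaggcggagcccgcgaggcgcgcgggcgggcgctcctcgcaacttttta
Aldh6a1: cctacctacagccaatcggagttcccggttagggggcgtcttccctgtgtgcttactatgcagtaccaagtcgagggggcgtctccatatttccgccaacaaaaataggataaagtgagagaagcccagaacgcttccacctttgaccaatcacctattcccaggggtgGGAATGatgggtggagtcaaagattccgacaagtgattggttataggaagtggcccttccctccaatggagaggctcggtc
Pdk2: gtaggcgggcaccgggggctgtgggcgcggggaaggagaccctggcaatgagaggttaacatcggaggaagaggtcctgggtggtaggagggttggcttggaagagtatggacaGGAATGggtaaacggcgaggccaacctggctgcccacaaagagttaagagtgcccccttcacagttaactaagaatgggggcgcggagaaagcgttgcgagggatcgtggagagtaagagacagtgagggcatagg

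The Postn window printed here and the window before its other RefSeq start held 0 matches, and the Yap1 window held 1. Aldh6a1 and Pdk2 each have another window before a RefSeq start, chr12:84448318-84448567 and chr11:95041372-95041621, and these held 0 matches. Over all genes tested, 13.1% of those with a RefSeq promoter held the motif in their 250 bases (1427 of 10900). Among genes that DESeq2 called lower in Cre-positive MI hearts, described next, the share was 14.9% (10 of 67), and among those called higher it was 18.6% (13 of 70). A match is a description of letters and says nothing on whether a TEAD protein binds there.

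Over all genes, edgeR called 0 genes higher (0%) and 0 lower (0%) of 13678 between the genotypes after MI at an adjusted p under 0.05. The smallest adjusted p was 0.187, and 1728 genes (12.6%) had an unadjusted p under 0.05, 778 of them higher (5.69%) and 950 lower (6.95%) in Cre-positive hearts. DESeq2 on the same 12 libraries called 177 genes (1.29%), 87 higher (0.636%) and 90 lower (0.658%). The difference was at least 2-fold in 9 of them, and the median log2 difference was 0.54 among those higher and -0.58 among those lower. In 176 of the 177 the 3 Cre-positive and 3 Cre-negative libraries did not overlap, against 27.2% of all genes tested. The calls were made on these same libraries, so this count is no separate support for them. The authors' deposited table called 380 genes higher and 383 lower, and these included 166 of the 177. Calls given below are those of the fits made here, unless the authors' table is named. That table also called Fn1, Runx1, Atp2a2 and Mki67, given below as not called (DESeq2 adjusted p = 4.95e-05, 0.00019, 0.0072 and 0.00222). The differences after MI described below were thus not called by the quasi-likelihood test on all 12 libraries.

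The groups' libraries did not overlap in 1636 genes that were higher (12%) and in 2081 that were lower (15.2%) in Cre-positive MI hearts, against 5.5% and 5.14% between the sham groups. An exact permutation test of 3 against 3 cannot give a p below 0.1. Under scaling to the library total, which shifted the median gene by -0.07 on the log2 scale against -0.01 under TMM, the split was 1004 higher and 2906 lower. Lists below are described by how many members did not overlap, to be read against these backgrounds of 12% and 15.2%, and by their median log2 difference, which over all genes was -0.007. In whole ventricle, fewer cells of a type and less RNA per cell cannot be told apart.

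DESeq2 called 16 genes in each of the 12 fits that left out 1 library, 6 lower and 10 higher in Cre-positive hearts, with adjusted p-values of 1.64e-14 to 0.0498 over those fits. The plot of 12 genes by library shows most of them. With Y-linked reads as a covariate 11 of the 16 had an adjusted p, and all 11 of these were still called. Of the 177 genes, 160 lost the call when at least 1 library was left out.

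**Figure D1:**
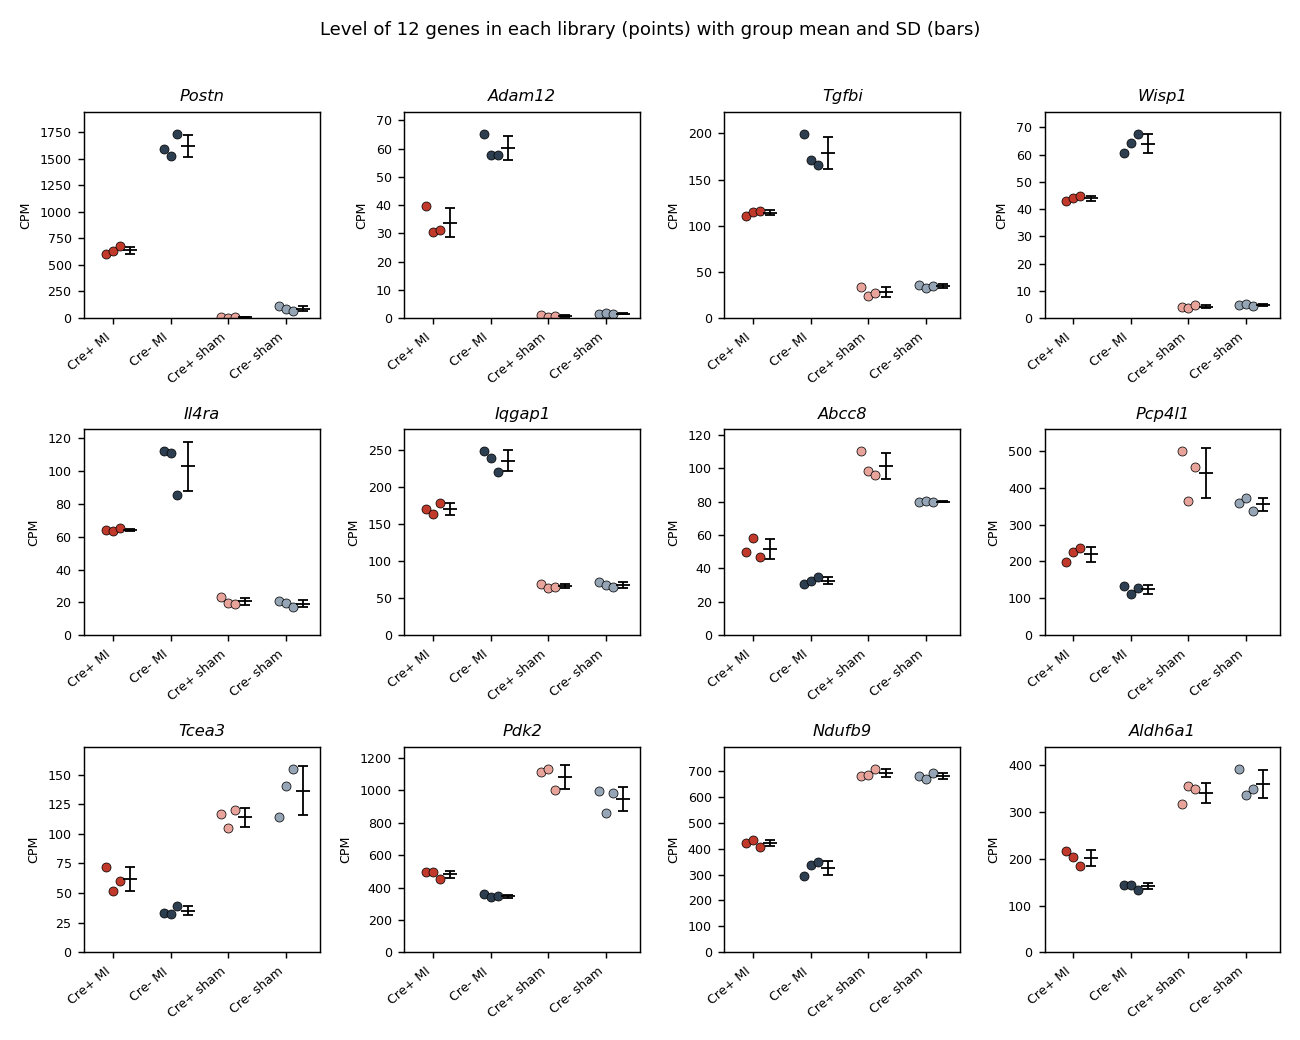
TMM-scaled CPM (y axes, from 0) of 12 genes that DESeq2 called in every fit with 1 library left out, in the 4 groups of 3 libraries (points; bars are means with SD). In each panel the 3 Cre-positive MI points lie all below or all above the 3 Cre-negative MI points, for example 603 to 674 against 1528 to 1729 CPM for Postn.

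Beside Postn, the stable lower genes were Adam12, Tgfbi, Wisp1, Il4ra and Iqgap1. Adam12, a membrane metalloprotease of activated stromal cells, was at 39.7, 30.4 and 31.1 CPM against 65.1, 57.6 and 57.7 CPM (-0.83 ± 0.17, DESeq2 adjusted p = 0.000225). Tgfbi, a secreted protein induced by TGF-beta that binds collagens and integrins, was at 111, 115 and 116 CPM against 199, 171 and 166 CPM (-0.65 ± 0.12). Wisp1, a matricellular protein of the CCN family, was at 43.0, 44.2 and 44.8 CPM against 60.5, 64.2 and 67.5 CPM (-0.54 ± 0.10). In each of these 3 genes every Cre-positive library lay below every Cre-negative one. Il4ra, the receptor subunit shared by interleukin-4 and interleukin-13, was at 64.0, 63.7 and 65.1 CPM against 112, 111 and 85.6 CPM (-0.68 ± 0.12). Iqgap1, a scaffold that links receptors to actin, was at 170, 163 and 179 CPM against 248, 239 and 220 CPM (-0.46 ± 0.08). The Cre-positive libraries of both lay close together, and the Cre-negative replicate 3 was the nearest to them.

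The stable higher genes included a channel subunit and genes of mitochondria. Pcp4l1, which encodes a small IQ-motif protein, was at 197, 226 and 236 CPM against 133, 111 and 129 CPM (0.82 ± 0.13, DESeq2 adjusted p = 2.61e-05, and 1.34e-11 to 0.00582 over 16 DESeq2 fits). Abcc8, a sulfonylurea receptor subunit of ATP-sensitive potassium channels, was at 50, 58.4 and 46.8 CPM against 30.6, 32.6 and 34.9 CPM (0.66 ± 0.10). In both genes the lowest Cre-positive library lay above the highest Cre-negative one.

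Among mitochondrial genes, Aldh6a1, a dehydrogenase of valine breakdown, was at 217, 205 and 184 CPM against 145, 145 and 134 CPM (0.51 ± 0.10). Pdk2, a kinase that restrains pyruvate dehydrogenase, was at 495, 493 and 454 CPM against 357, 339 and 345 CPM (0.47 ± 0.10). Ndufb9, a subunit of respiratory complex I, was at 422, 434 and 408 CPM against 295, 335 and 347 CPM (0.37 ± 0.09). These 3 differences were small in fold and without overlap. Other stable genes were Tcea3, a transcription elongation factor (0.81 ± 0.14), Mreg (0.72 ± 0.12), Asb14 (0.63 ± 0.11) and Mettl7a1 (0.54 ± 0.09), all higher in Cre-positive hearts.

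The 15 largest lower differences among DESeq2's calls included several genes of leukocytes. Chil3, a chitinase-like lectin of macrophages, was at 10.5, 13.1 and 14.1 CPM against 48.3, 29.3 and 17.0 CPM (-1.33 ± 0.31). Its Cre-negative libraries spread widely, with replicate 3 just above the Cre-positive range. Tlr1 (-0.87 ± 0.29), a Toll-like receptor, Adam8 (-0.87 ± 0.19), Lilr4b (-0.83 ± 0.19), Hk3 (-0.82 ± 0.27), the hexokinase of myeloid cells, and Bin2 (-0.81 ± 0.20) followed. Spp1, the secreted phosphoprotein osteopontin, was at 412, 452 and 657 CPM against 981, 854 and 879 CPM (-0.84 ± 0.19). The others were Sqle (-0.88 ± 0.22), Ddit4l (-0.87 ± 0.21), Emb (-0.85 ± 0.20), Gdf6 (-0.82 ± 0.22), Ccnb2 (-0.82 ± 0.17) and Nxpe5 (-0.81 ± 0.32), with Postn and Adam12 as above. Apart from Postn and Adam12, DESeq2 called these genes in 3 to 9 of the 12 fits that left out 1 library, of which up to 6 gave a gene no adjusted p (Sqle).

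Among the 15 largest higher differences, Kcnv2, a modulatory potassium channel subunit, had the largest log2 value, at 4.81, 9.26 and 6.17 CPM against 1.62, 2.93 and 2.33 CPM (1.55 ± 0.37). Gpcpd1, a phosphodiesterase of glycerophosphocholine, was at 228, 404 and 276 CPM against 148, 153 and 165 CPM (0.96 ± 0.20), with Cre-positive replicate 2 far above the others. Klf15, a transcription factor of fasting metabolism in heart muscle, was at 61.0, 63.1 and 49.0 CPM against 32.9, 24.9 and 37.6 CPM (0.86 ± 0.17), and DESeq2 called it in 11 of those 12 fits. Klf15 was not called without Cre-positive MI replicate 2. The list went on with Snrpn (1.28 ± 0.36), Ces1d (1.21 ± 0.27), Gsta3 (1.15 ± 0.31), Rab6b (1.10 ± 0.24), Myo5c (0.86 ± 0.21), Celsr2 (0.85 ± 0.16), Flvcr2 (0.83 ± 0.22), Klhdc9 (0.77 ± 0.17), Scara5 (0.73 ± 0.19) and Gfra1 (0.73 ± 0.19), plus Pcp4l1 and Tcea3. DESeq2 called these 10 in 4 to 9 of the 12 fits, of which up to 3 gave a gene no adjusted p.

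Most of the fibrillar, network and associated collagens listed were lower in Cre-positive MI hearts. Of these 19 genes, 18 did not overlap and were lower, against 15.2% of all genes, and none was higher, with a median log2 difference of -0.39. The count was 18 under scaling to the library total as well. Summed over the 19 genes, the level was 15397, 16060 and 16293 CPM in Cre-positive and 21674, 20189 and 21518 CPM in Cre-negative libraries. Every Cre-positive sum lay below every Cre-negative one. edgeR called 0 of them, with 6 lower at an unadjusted p under 0.05, and DESeq2 called 1, Col12a1, a collagen that decorates fibrils, at 77.0, 66.3 and 91.1 CPM against 128, 116 and 124 CPM (-0.65 ± 0.15, DESeq2 adjusted p = 0.00893, and 8.95e-05 to 0.193 over its fits).

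The fibril collagens that make up most of a scar separated the libraries but carried large model errors. Col1a1 was at 3670, 4262 and 4551 CPM against 5806, 5201 and 6109 CPM, a log2 difference of -0.46 ± 0.46 (edgeR adjusted p = 0.743). Col3a1 was at 3903, 4420 and 3830 CPM against 5491, 4917 and 5204 CPM (-0.36 ± 0.55). Neither overlapped, yet the differences were no larger than about 1 SE of the model fitted to all 12 libraries. That SE is not the spread of the MI libraries alone, since it pools the sham libraries. Collagen sums of the Cre-positive sham libraries ran from 899 to 2290 CPM. The authors' deposited table after MI gives DESeq2 adjusted p-values of 0.00252 for Col1a1 and 0.00767 for Col3a1. Per transcript length, mean FPKM in Cre-positive and Cre-negative hearts was 732 and 1052 for Col1a1, 762 and 1027 for Col3a1, 553 and 762 for Col1a2 and 6.96 and 11.4 for Col12a1. Type I and type III chains thus stood far above Col12a1 in both genotypes. Col8a2, a short-chain collagen, was the 1 member that overlapped, at 11.3, 6.71 and 12.5 CPM against 7.31, 15.5 and 10.8 CPM (-0.13 ± 0.29), and its sign turned when replicate 2 of either genotype was left out (0.09 and 0.17).

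Enzymes that modify collagen were lower in most cases. Of 22, 15 were lower without overlap and 1 was higher (median -0.35), and DESeq2 called P4ha3, a prolyl hydroxylase subunit, at 17.4, 15.4 and 22.2 CPM against 29.6, 32.4 and 29.1 CPM (-0.73 ± 0.27). Bmp1, the protease that trims procollagen, was at 136, 142 and 139 CPM against 204, 172 and 170 CPM (-0.39 ± 0.13). Of 32 matrix glycoproteins, 13 were lower without overlap and 1 higher (median -0.26). DESeq2 called Postn, Tgfbi and Fbln2, the last at 430, 357 and 395 CPM against 607, 508 and 522 CPM (-0.47 ± 0.11). Fn1, fibronectin, was at 1414, 1158 and 1302 CPM against 1884, 1848 and 1821 CPM (-0.52 ± 0.22) and was not called. Among 18 proteoglycans the counts were 7 lower and 2 higher, against 15.2% and 12% of all genes (median -0.16).

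Of 31 matrix proteases and inhibitors 15 were lower without overlap and 3 higher (median -0.21). The 3 that DESeq2 called were the transmembrane proteases Adam12, Adam8 and Adam9. Adam8 was at 58.9, 49.0 and 64.6 CPM against 139, 99.0 and 76.4 CPM (-0.87 ± 0.19), and Adam9 at 109, 109 and 120 CPM against 159, 139 and 138 CPM (-0.37 ± 0.09). In both, Cre-negative replicate 1 was the highest library. Adam8 lost DESeq2's call when replicate 1 or 2 of either genotype was left out.

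**Figure D2:**
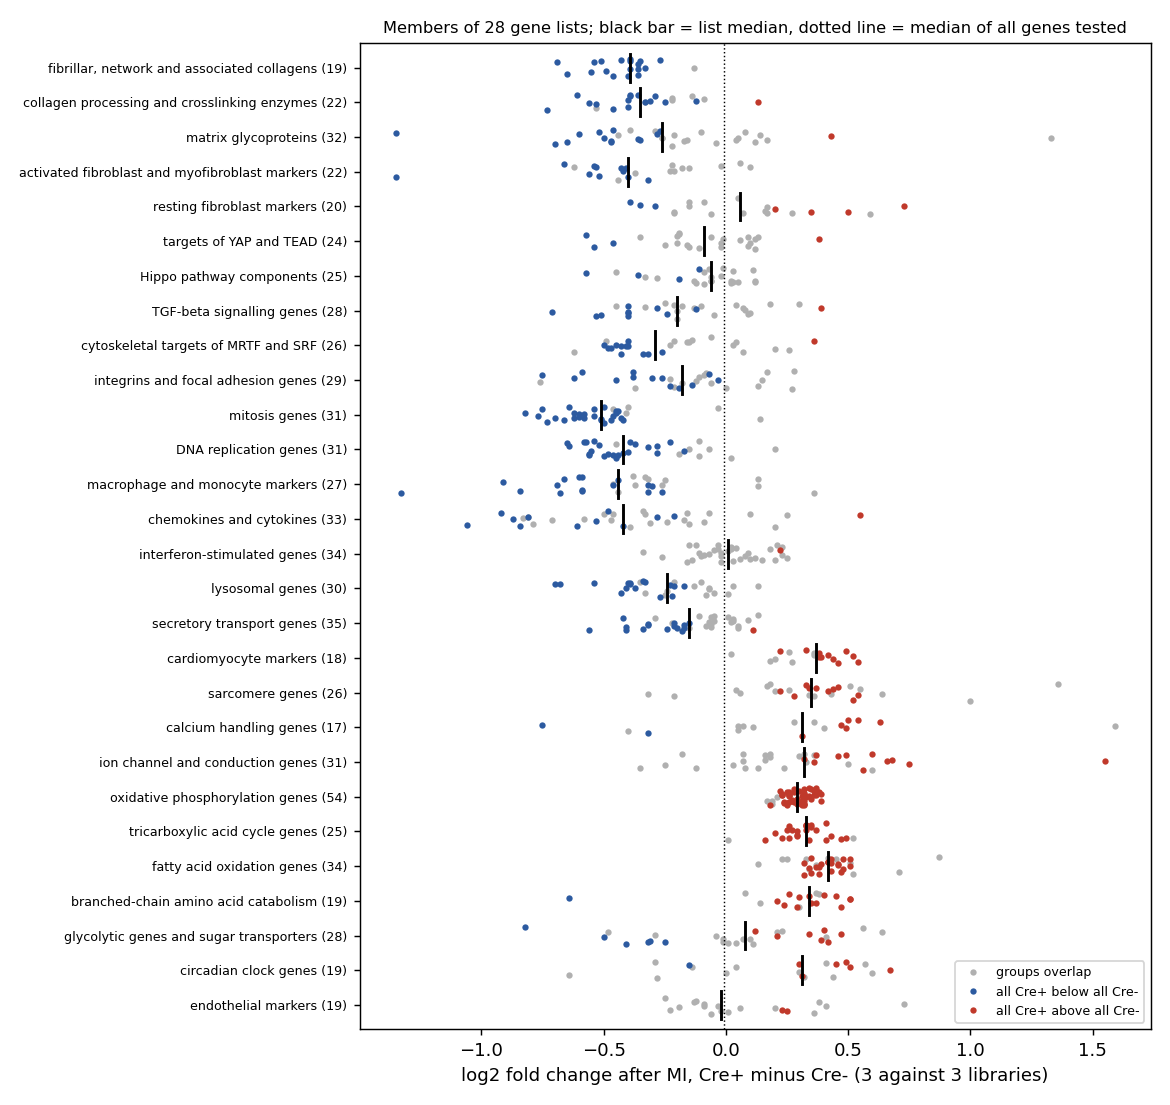
Log2 values of Cre-positive over Cre-negative MI hearts (x axis, edgeR) for each member (points) of 28 gene lists (rows), with the median as a bar and the median of all genes as a dotted line. Collagens, mitosis and macrophage lists lie left of the dotted line with medians of -0.39, -0.51 and -0.44, and sarcomere, oxidative phosphorylation and fatty acid oxidation lists lie right of it with medians of 0.35, 0.29 and 0.42.

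Markers of activated fibroblasts were lower, and those of resting fibroblasts were not. Of 22 activated fibroblast and myofibroblast markers 11 were lower without overlap and 0 higher (median -0.40), and DESeq2 called Postn, Wisp1 and Ckap4. Ckap4, a protein of the endoplasmic reticulum and cell surface, was at 144, 151 and 192 CPM against 244, 226 and 251 CPM (-0.56 ± 0.12). Runx1, a transcription factor of injured muscle and stroma, was at 23.8, 25.9 and 30.3 CPM against 43.5, 40.9 and 42.0 CPM (-0.66 ± 0.23) and was not called. Acta2, smooth muscle actin and the classical myofibroblast marker, was at 380, 388 and 484 CPM against 523, 437 and 510 CPM, where the groups overlapped (-0.23 ± 0.35). Summed, this list stood at 3646, 3482 and 3940 CPM against 5809, 5512 and 5922 CPM, of which Postn is a large part.

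Among 20 resting fibroblast markers, 3 were lower and 4 higher without overlap (median 0.06, and 0.02 without Cre-positive MI replicate 1). Their sum was 3560, 3608 and 3076 CPM against 3148, 3149 and 3222 CPM, so the groups overlapped. Scara5, a ferritin receptor of resting fibroblasts and the member that DESeq2 called, was at 27.6, 28.6 and 16.7 CPM against 15.9, 13.4 and 14.4 CPM (0.73 ± 0.19). Gsn, gelsolin, was at 1101, 1248 and 868 CPM against 770, 747 and 763 CPM (0.50 ± 0.17). In both genes Cre-positive replicate 3 lay closest to the Cre-negative range. The general fibroblast genes Pdgfra (-0.21 ± 0.17) and Tcf21 (-0.15 ± 0.18) overlapped between the groups. Of 16 chondrogenic and osteogenic genes 6 were lower without overlap (median -0.33, and -0.15 with Y-linked reads as a covariate), with Spp1 and the growth factor gene Gdf6 called by DESeq2.

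Genes that YAP and TEAD are known to drive were described as a list. Of 24 measured targets 3 were lower and 1 higher without overlap, against 15.2% and 12% of all genes (median -0.09, and -0.03 with Y-linked reads as a covariate). edgeR and DESeq2 each called 0 of them, and 2 were lower and 1 higher at an unadjusted edgeR p under 0.05. Cyr61, a secreted CCN protein, was at 104, 77.9 and 91.6 CPM against 144, 125 and 130 CPM (-0.54 ± 0.15, DESeq2 adjusted p = 0.0566). Myof, a membrane repair protein, was at 57.4, 50.3 and 55.0 CPM against 93.6, 78.3 and 70.2 CPM (-0.57 ± 0.16, DESeq2 adjusted p = 0.051). Both separated the groups. The authors' deposited table, from DESeq2, called both (adjusted p = 0.00211 for Cyr61 and 0.00163 for Myof). It did not call Ctgf, Ankrd1 or F3, described next (adjusted p = 0.605, 0.653 and 0.105). Ctgf, the best known target, was at 513, 407 and 418 CPM against 573, 510 and 449 CPM (-0.20 ± 0.30), with overlap. Ankrd1, which heart muscle also makes in quantity under strain, was at 2190, 1905 and 2231 CPM against 1739, 1859 and 2165 CPM (0.13 ± 0.57). The member without overlap in the other direction was F3, tissue factor, at 22.3, 20.9 and 19.0 CPM against 16.8, 15.5 and 15.5 CPM (0.38 ± 0.14).

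Of 25 Hippo pathway components 4 were lower and 0 higher without overlap (median -0.06, and -0.03 with the covariate), and neither tool called any. Mob1a, a cofactor of the LATS kinases, had the smallest p and was at 13.5, 15.5 and 14.3 CPM against 17.0, 21.2 and 17.5 CPM (-0.36 ± 0.12). Vgll3, a TEAD cofactor, was at 10.2, 8.20 and 9.69 CPM against 17.0, 12.2 and 12.6 CPM (-0.57 ± 0.23). The main DNA-binding partner, Tead1, was at 218, 246 and 239 CPM against 218, 228 and 234 CPM (0.05 ± 0.11), so its groups overlapped.

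Other signalling lists were described in the same way. Of 26 cytoskeletal genes driven by the actin-sensing cofactors MRTF and SRF, 12 were lower without overlap and 1 higher (median -0.29). DESeq2 called Flna, the actin crosslinker filamin A, at 417, 377 and 416 CPM against 613, 531 and 510 CPM (-0.45 ± 0.12), but in 4 of 12 fits with 1 library left out. Of 29 integrin and focal adhesion genes 13 were lower and 0 higher (median -0.18), with 0 calls by either tool and 8 lower at an unadjusted edgeR p under 0.05. Itgb2, the leukocyte integrin beta chain, was at 54.5, 50 and 54.6 CPM against 94.6, 81.1 and 69.6 CPM (-0.62 ± 0.18). Of 28 TGF-beta signalling genes 10 were lower and 1 higher (median -0.20), also without a call by either tool. The ligand gene Tgfb1 was at 94.5, 84.5 and 98.8 CPM against 131, 126 and 111 CPM (-0.40 ± 0.15), and Nrros, which tethers latent TGF-beta on macrophages, at 23.1, 21.8 and 26.6 CPM against 42.9, 40.6 and 33.3 CPM (-0.71 ± 0.25). The receptor gene Tgfbr1 overlapped (-0.20 ± 0.13), and Acvr2b, an activin receptor, was higher, at 11.9, 10.3 and 10.3 CPM against 7.77, 8.24 and 8.74 CPM (0.39 ± 0.12).

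**Figure D3:**
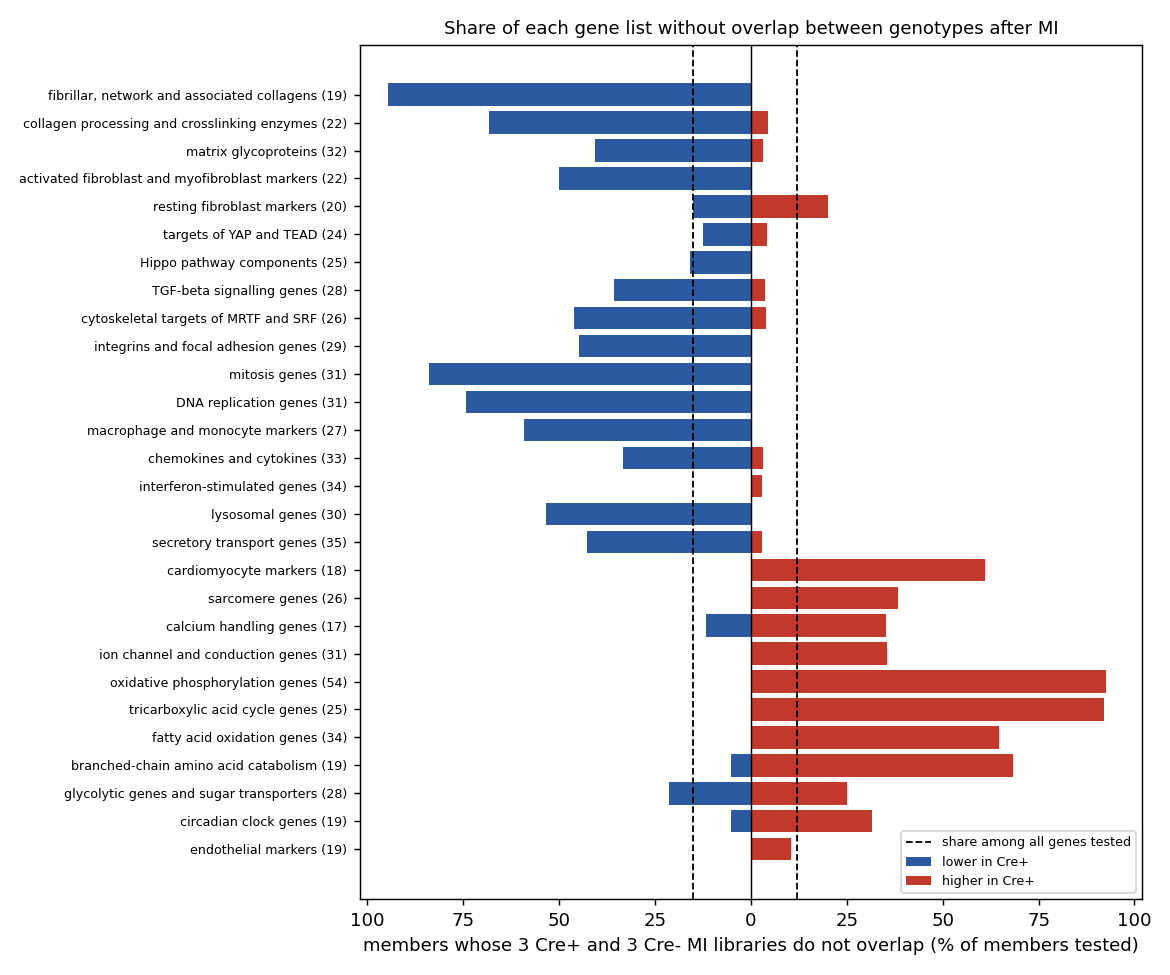
Share of each list's tested members (x axis, percent) whose 3 Cre-positive and 3 Cre-negative MI libraries did not overlap, lower (blue) or higher (red) in Cre-positive hearts. Dashed lines mark the shares over all 13678 genes, 15.2% lower and 12% higher. Targets of YAP and TEAD lie below both lines, and collagens, mitosis and oxidative phosphorylation genes lie far beyond 1 of them.

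Genes of the contractile apparatus were higher in Cre-positive hearts. Of 26 sarcomere genes 10 were higher and 0 lower without overlap (median 0.35), and DESeq2 called Mylk3, the cardiac myosin light chain kinase, at 468, 492 and 401 CPM against 291, 274 and 369 CPM (0.54 ± 0.14). Tnni3, cardiac troponin I, was at 3100, 3522 and 3233 CPM against 2116, 2374 and 2698 CPM (0.46 ± 0.16). Myh6, the adult myosin heavy chain of the mouse ventricle, was at 21184, 25973 and 24988 CPM against 13637, 17078 and 19524 CPM (0.52 ± 0.36). In all 3, Cre-negative replicate 3 was nearest to the Cre-positive libraries. The slow myosin gene Myh7, a marker of strain, overlapped, at 1289, 3042 and 1207 CPM against 1669, 1021 and 872 CPM (0.64 ± 1.01).

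The 18 cardiomyocyte markers summed to 93662, 109437 and 104936 CPM in Cre-positive and 65429, 80846 and 89396 CPM in Cre-negative MI libraries. Of these markers 11 were higher and 0 lower without overlap (median 0.37). Their part in the differences of other muscle and metabolic genes was not tested. The 22 genes of the cardiac stress programme did not follow the sarcomere, with 4 lower and 0 higher (median -0.15). Nppa, the atrial natriuretic peptide gene, overlapped at 2298, 2569 and 3477 CPM against 2394, 2457 and 2953 CPM (0.10 ± 0.34).

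Of 17 calcium handling genes 6 were higher and 2 lower without overlap (median 0.31), and DESeq2 called 3 higher and 1 lower. Pln, phospholamban, which restrains the calcium pump, was at 4951, 6151 and 5066 CPM against 3509, 3808 and 4229 CPM (0.49 ± 0.15). Cacna1c, the pore of the L-type calcium channel, was at 259, 303 and 246 CPM against 185, 202 and 196 CPM (0.47 ± 0.13). The pump gene Atp2a2 itself was at 9118, 12185 and 9953 CPM against 5668, 7671 and 8207 CPM (0.54 ± 0.24) and was not called.

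Of 31 ion channel and conduction genes 11 were higher and 0 lower (median 0.32), with Abcc8, Kcnj11 and Kcnv2 called by DESeq2. Kcnj11, a pore that Abcc8's product can regulate, was at 146, 182 and 142 CPM against 111, 110 and 114 CPM (0.49 ± 0.12). Both genes were thus higher in all 3 Cre-positive libraries. They are neighbours on chromosome 7, with starts at 46104523 (Abcc8) and 46097123 (Kcnj11). Fgf13, an intracellular FGF that modulates sodium channels, was at 77.0, 81.6 and 69.7 CPM against 53.4, 50.5 and 56.8 CPM (0.51 ± 0.10), and DESeq2 called it with an adjusted p of 0.00206 (0.000303 to 0.0881 over 16 fits).

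Genes of energy metabolism were higher in Cre-positive hearts. All 54 oxidative phosphorylation genes had a positive log2 difference, and in 50 of them every Cre-positive library lay above every Cre-negative one, against 12% of all genes (median 0.29). Under scaling to the library total the count was 41. Their sum was 31585, 31578 and 29795 CPM against 22593, 25754 and 26278 CPM. DESeq2 called 5 of them. Atp5b, the catalytic beta subunit of ATP synthase, was at 4554, 4466 and 4064 CPM against 3229, 3431 and 3452 CPM (0.37 ± 0.11), and Ndufv1, the NADH-binding subunit of complex I, at 478, 516 and 436 CPM against 373, 356 and 378 CPM (0.37 ± 0.10). Atp5a1 (0.38 ± 0.12), Ndufa1 (0.32 ± 0.09) and Ndufb9 completed the calls.

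The tricarboxylic acid cycle followed, with 23 of 25 genes higher and 0 lower without overlap (median 0.33). DESeq2 called Pdk2, Suclg2 (0.41 ± 0.10) and Idh3g (0.37 ± 0.10) among them. Of 34 fatty acid oxidation genes 22 were higher and 0 lower (median 0.42). Here DESeq2 called Etfb, an electron carrier for the acyl-CoA dehydrogenases, at 332, 352 and 318 CPM against 223, 251 and 273 CPM (0.42 ± 0.10), and Acsl1, which activates fatty acids, at 860, 895 and 768 CPM against 561, 630 and 683 CPM (0.43 ± 0.13). Cre-negative replicate 1 was the lowest library in both Etfb and Acsl1.

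Of 19 genes of branched-chain amino acid breakdown 13 were higher and 1 lower (median 0.34). Aldh6a1 and Bckdhb, a subunit of the ketoacid dehydrogenase, at 43.3, 48.5 and 43.9 CPM against 30.3, 31.4 and 33.2 CPM (0.51 ± 0.13), were called by DESeq2. The lower member was Bcat1, the cytosolic transaminase found in leukocytes and dividing cells rather than heart muscle, at 12, 14.6 and 12.6 CPM against 19.0, 19.6 and 22.5 CPM (-0.64 ± 0.22). Glycolytic genes and sugar transporters did not lean one way, with 6 lower and 7 higher of 28 (median 0.08, and 0.13 with Y-linked reads as a covariate). Hk3, at 11.2, 10.3 and 13.9 CPM against 23.9, 20.8 and 18.1 CPM, was the member that DESeq2 called.

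Genes of cell division were lower in Cre-positive MI hearts. Of 31 mitosis genes 26 were lower and 0 higher without overlap, against 15.2% and 12% of all genes (median -0.51). Their sum was 390, 416 and 512 CPM against 622, 609 and 617 CPM. The Cre-positive libraries spread more than the Cre-negative ones and all lay below them. DESeq2 called Ccnb2 and Ccnb1, cyclins of mitotic entry, and Kif20a, a kinesin of cytokinesis. Ccnb2 was at 8.40, 8.20 and 10.2 CPM against 17.1, 15.4 and 14.6 CPM (-0.82 ± 0.17), Ccnb1 at 7.32, 9.47 and 9.29 CPM against 16, 14.0 and 14.4 CPM (-0.77 ± 0.28), and Kif20a at 10.7, 11.4 and 14.7 CPM against 19.8, 19.7 and 18.1 CPM (-0.64 ± 0.18). Mki67, the usual proliferation marker, was at 39.4, 42.3 and 54.9 CPM against 67.2, 69.4 and 67.8 CPM (-0.58 ± 0.22) and was not called.

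Of 31 DNA replication genes 23 were lower and 0 higher (median -0.42), with Mcm6, a subunit of the replicative helicase, and Rrm2, a subunit of ribonucleotide reductase, called by DESeq2. Mcm6 was at 30.4, 28.1 and 34.8 CPM against 46.4, 46.7 and 42.1 CPM (-0.54 ± 0.11), and Rrm2 at 12.3, 12.9 and 14.3 CPM against 19.8, 18.4 and 19.9 CPM (-0.56 ± 0.17). Which cells divided cannot be read from whole tissue, and the part of the fibroblast and macrophage markers, whose sums were lower in the same libraries, was not tested. DESeq2 gave no adjusted p for Ccnb2, Ccnb1, Kif20a, Mcm6 and Rrm2 with Y-linked reads as a covariate, where the log2 differences were -0.82, -0.97, -0.71, -0.61 and -0.67 in edgeR.

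Macrophage genes were lower as well. Of 27 macrophage and monocyte markers 16 were lower and 0 higher without overlap (median -0.44), and they summed to 2841, 2683 and 3286 CPM against 4700, 4248 and 3927 CPM. DESeq2 called Spp1, Chil3 and Fabp5, a fatty acid binding protein, the last at 87.1, 69.4 and 88.9 CPM against 143, 110 and 116 CPM (-0.59 ± 0.14). Cd68, a lysosomal glycoprotein of macrophages, was at 148, 114 and 146 CPM against 256, 211 and 187 CPM (-0.68 ± 0.19, DESeq2 adjusted p = 0.0505). In Cd68 and Fabp5 Cre-negative replicate 1 was highest. Of 10 resident macrophage markers 2 were lower and 0 higher (median 0.06, but -0.25 without Cre-positive MI replicate 1 and 0.23 with Y-linked reads as a covariate). Of 30 lysosomal genes 16 were lower and 0 higher (median -0.24), with 0 calls by either tool and 7 lower at an unadjusted edgeR p under 0.05.

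Of 33 measured chemokines and cytokines 11 were lower and 1 higher (median -0.42), Spp1 being DESeq2's call. Ccl2, the monocyte attractant, was at 11.0, 13.5 and 21.8 CPM against 30.9, 30.7 and 23.5 CPM (-0.87 ± 0.37). The closest libraries in Ccl2 were both replicate 3. Interferon-stimulated genes did not share the direction, with 0 lower and 1 higher of 34 (median 0.01, but -0.27 with Y-linked reads as a covariate and 0.12 without Cre-positive MI replicate 1). Of 10 neutrophil markers tested 2 were lower (median -0.80, but -0.41 without Cre-positive MI replicate 1 and -1.44 with the covariate), at summed levels of 72 to 109 CPM in Cre-positive and 68.8 to 147 CPM in Cre-negative libraries, which overlapped. Irf8, a transcription factor of monocytes and dendritic cells, was at 22.0, 23.9 and 25.2 CPM against 35.1, 32.8 and 31.6 CPM (-0.48 ± 0.12) and was DESeq2's 1 call among 14 dendritic cell markers.

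**Figure D4:**
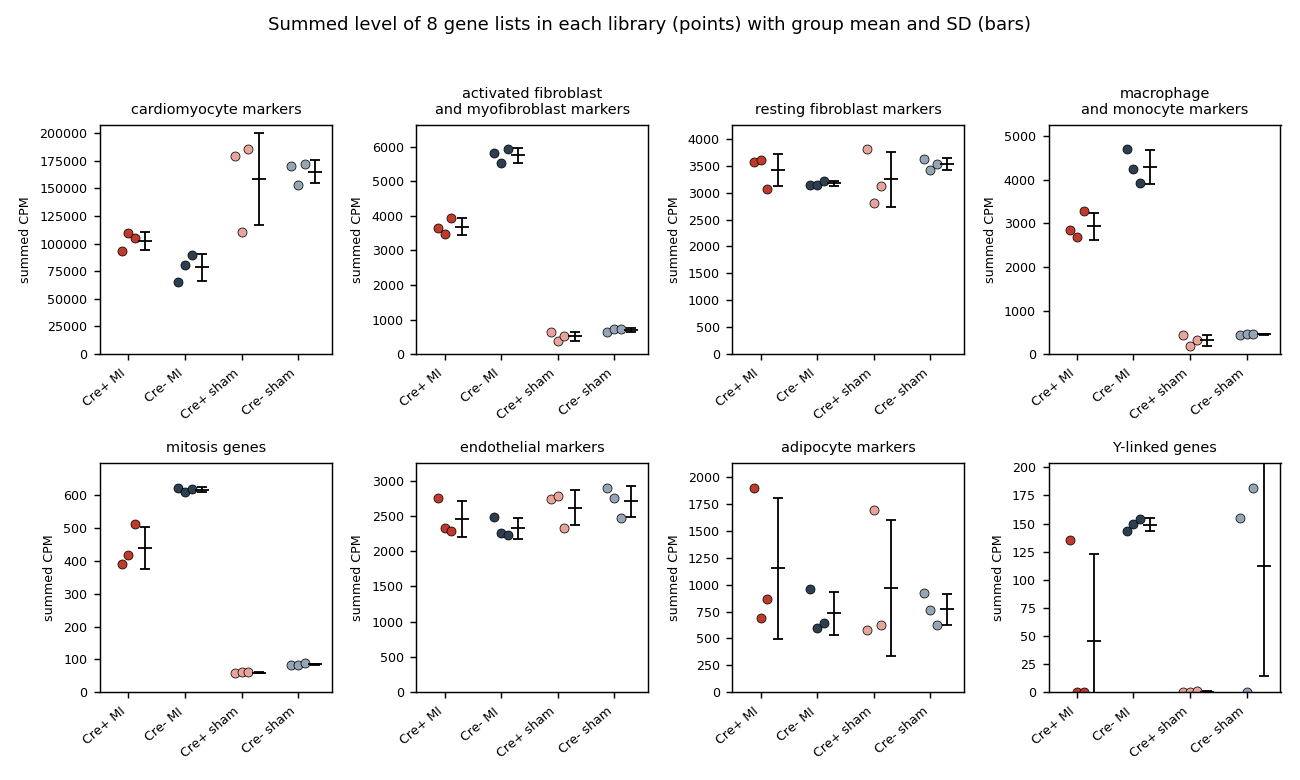
Summed TMM-scaled CPM (y axes, from 0) of 8 lists in each of the 12 libraries (points, by group; bars are means with SD, cut off by the axis in the Y-linked panel). Activated fibroblast, macrophage and mitosis sums of the Cre-positive MI libraries lie below those of the Cre-negative ones, cardiomyocyte sums lie above, resting fibroblast, endothelial and adipocyte sums overlap, and Y-linked genes are near 0 in 2 of the 3 Cre-positive MI libraries.

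Other cell types differed little or unevenly. The 19 endothelial markers summed to 2754, 2333 and 2282 CPM against 2489, 2251 and 2226 CPM, with 0 lower and 2 higher (median -0.02, but 0.04 with Y-linked reads as a covariate and 0.01 without Cre-positive MI replicate 1). Of 16 smooth muscle and pericyte markers 3 were lower and 1 higher (median -0.10). Pdpn, podoplanin, listed for lymphatic vessels and also made by activated stromal cells, was at 32.4, 26.8 and 31.9 CPM against 45.9, 46.3 and 45.9 CPM (-0.60 ± 0.13), and DESeq2 called it (adjusted p = 0.00283). Of the 7 lymphatic markers, Pdpn included, 2 had a negative and 5 a positive log2 difference (median 0.33, and 0.19 with Y-linked reads as a covariate). The 9 adipocyte markers tested had a median of 0.99 with 0 members free of overlap. Cre-positive replicate 1 carried that list, at 1901 CPM against 595 to 957 CPM in the other 5 MI libraries, and without it the median was -0.33. Library Cre-positive 1 is also the Cre-positive MI library with Y-linked reads.

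Genes of secretion were lower in part. Of 35 secretory transport genes 15 were lower and 1 higher without overlap (median -0.15), and DESeq2 called Creb3l1, Kdelr2 and Ssr1. Creb3l1, a membrane-bound transcription factor of collagen-secreting cells, was at 47.6, 46.2 and 54.1 CPM against 81.3, 67.5 and 69.8 CPM (-0.56 ± 0.13). Kdelr2, a receptor that returns proteins to the endoplasmic reticulum, was at 67.8, 68.0 and 79.9 CPM against 95.7, 92.1 and 99.7 CPM (-0.41 ± 0.11). Of 27 unfolded protein response genes 10 were lower and 3 higher (median -0.18). The member that DESeq2 called went against the list. Herpud1, which helps degrade misfolded proteins, was at 231, 308 and 212 CPM against 162, 145 and 150 CPM (0.72 ± 0.17). Of 42 ribosomal protein genes 2 were lower and 0 higher under TMM (median -0.07, and -0.03 without Cre-positive MI replicate 1) but 14 were lower under scaling to the library total. Of 19 circadian clock genes 6 were higher and 1 lower (median 0.31), with Hlf, a clock output factor, at 52.6, 38.9 and 36.3 CPM against 26.6, 23.5 and 30.4 CPM (0.67 ± 0.16) as DESeq2's call. The labels give no time of day.

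The same contrast after sham surgery shares no library with the one after MI. There edgeR called 0 genes higher (0%) and 7 lower (0.0512%) in Cre-positive hearts, namely Postn, Tnc, Cthrc1, Bche, Sprr1a, Aspn and Spp1. Postn was at 10.2, 3.76 and 11.4 CPM against 111, 86.8 and 62.7 CPM (-3.36 ± 0.32, edgeR adjusted p = 0.00227). Tnc, the matrix glycoprotein tenascin C, was at 1.53, 0.458 and 1.13 CPM against 8.75, 8.29 and 12.7 CPM after sham (-3.22 ± 0.32), and at 220, 284 and 320 CPM against 407, 313 and 401 CPM after MI, where the groups overlapped (-0.44 ± 0.20). Cthrc1, a secreted protein of activated fibroblasts, was at 0.161, 0 and 0.413 CPM against 4.80, 2.80 and 5.91 CPM after sham, and at 93.9, 116 and 131 CPM against 133, 118 and 146 CPM after MI, again with overlap (-0.22 ± 0.21). Bche, a cholinesterase, was at 41.3, 43.2 and 42.1 CPM against 44.5, 50.3 and 41.3 CPM after MI (-0.11 ± 0.10), against -0.84 ± 0.10 after sham. Without Cre-positive sham replicate 2 edgeR called 5 lower, and the sham log2 differences were -2.98 for Postn (adjusted p = 5.39e-05), -2.84 for Tnc, -3.98 for Cthrc1 and -0.86 for Bche. Sprr1a and Spp1 were not called then (adjusted p = 0.0854 and 0.112). With Y-linked reads as a covariate edgeR also called 5 lower, without Bche and Spp1 (both at an adjusted p of 0.102).

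The difference of the genotype contrast between MI and sham was tested in itself. edgeR called 0 genes in either direction, with a smallest adjusted p of 0.0777 and 1116 genes at an unadjusted p under 0.05, and DESeq2 called 21 higher and 13 lower. The smallest p belonged to Cthrc1 (4.34 ± 0.58) and Tnc (2.78 ± 0.39), both at an adjusted p of 0.0777, followed by Sprr1a (3.47 ± 0.58). For Postn the log2 difference between the contrasts was 2.01 ± 0.41 (edgeR adjusted p = 0.496). Tubb6, a beta-tubulin, and Pgam1, a glycolytic mutase, had negative values, -0.95 ± 0.16 and -0.89 ± 0.16. Tubb6 was at 64.7, 73.1 and 85.4 CPM against 115, 110 and 105 CPM after MI and at 40.4, 38.5 and 35.2 CPM against 27.7, 27.3 and 32.5 CPM after sham, without overlap in opposite directions. Tcea3 (1.07 ± 0.20), Bche (0.73 ± 0.14), Cd300ld5 (4.45 ± 0.86) and Iigp1 (1.31 ± 0.28) completed the 10 smallest p-values. No gene passed edgeR's test of this difference. Without Cre-positive sham replicate 2 edgeR again called 0 genes, with values of 3.77 for Cthrc1, 2.41 for Tnc and 1.65 for Postn, all at an adjusted p of 0.0758, and DESeq2 called 66 higher and 37 lower.

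Lists show the contrasts side by side. The median log2 difference of collagens was -0.39 after MI and -0.77 after sham, and that of mitosis genes -0.51 and -0.78. For oxidative phosphorylation genes it was 0.29 and -0.02, for the tricarboxylic acid cycle 0.33 and 0.01, for sarcomere genes 0.35 and -0.01, and for macrophage markers -0.44 and -0.47. For fatty acid oxidation genes, of which no median without Cre-positive sham replicate 2 is given, it was 0.42 and 0.19. Their sum was 47004 CPM in that library, against 25733 and 29828 CPM in the other Cre-positive sham libraries. Without Cre-positive sham replicate 2 the sham medians were -0.36 for collagens, -0.70 for mitosis genes, 0.10 for oxidative phosphorylation genes, 0.10 for the tricarboxylic acid cycle, -0.02 for sarcomere genes and -0.18 for macrophage markers. The collagen and macrophage medians after sham thus rest in large part on that library, whose collagen sum was 899 CPM against 1642 and 2290 CPM in the other Cre-positive sham libraries.

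Genes near the engineered loci were counted as a description, and an effect of closeness was not tested. Within 5 Mb of Postn 42 genes were tested, of which 7 were lower and 7 higher without overlap, and within 5 Mb of Yap1 25 were tested, of which 4 were lower and 0 higher. DESeq2 called none of these neighbours, against 1.29% of all genes tested, so few calls could arise among them. edgeR called none of them either, but it called 0 of all 13678 genes. Over all genes the shares without overlap were 15.2% lower and 12% higher.

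**Figure D5:**
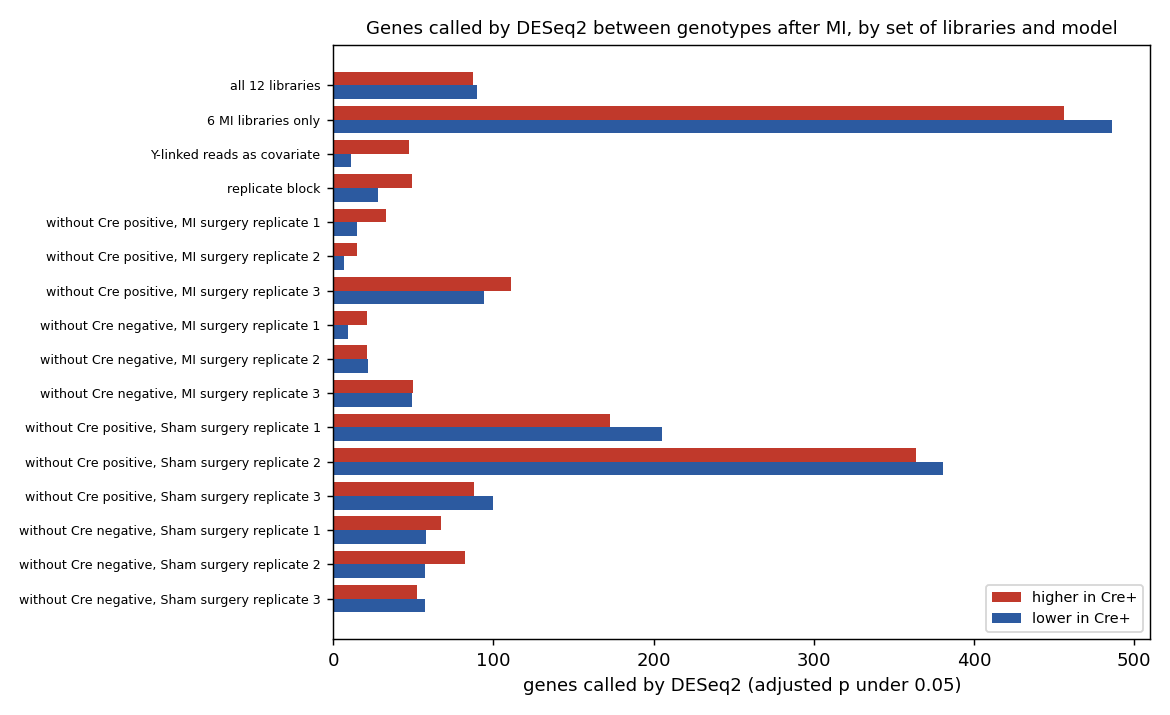
Number of genes that DESeq2 called higher (red) or lower (blue) in Cre-positive hearts after MI (x axis, adjusted p under 0.05), by the libraries and model used (rows). The counts run from 15 higher and 7 lower without Cre-positive MI replicate 2 to 456 higher and 486 lower with the 6 MI libraries alone.

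How many genes DESeq2 called depended strongly on which libraries entered the fit, as the plot of calls by setting shows. Without Cre-positive sham replicate 2, the library that stood apart, it called 364 higher and 381 lower, although that library is not part of the contrast. With Y-linked reads as a covariate it called 47 higher and 11 lower. Of the original 177 genes, 40 were called there, 36 lost the call and 101 had no adjusted p. All 177 kept their sign, but in 176 of them the MI groups did not overlap, so this is no separate support. With the 6 MI libraries alone DESeq2 called 171 of the 177. Those are the libraries that the 177 were called on, so this count is no separate support either.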

How the data were processed

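RNA was measured in 12 mouse left ventricles, 3 per combination of genotype and surgery, and the 6 infarcted ones are compared here. Per the submitters' processing notes, the authors used Bowtie2 2.2.5, RSEM 1.2.12 and the build mm10. Per the file headers, the deposited library files hold RSEM expected counts and FPKM values, and the authors' deposited comparison table holds log2 fold changes and adjusted p-values from DESeq2. FPKM served only for levels between genes. Genes absent from a library file were counted as 0, and expected counts were rounded (74.0% of those above 0 were whole to 2 decimals). Matching by identifier gave 17432 of 17471 genes a RefSeq entry. No pair of libraries held identical counts.

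Counts were fitted in R 4.3.3 with edgeR 4.0.16 (filterByExpr, minimum count 10, leaving 13678 genes and removing 3793, TMM, quasi-likelihood, 1 coefficient per group over all 12 libraries, 8 residual and 4.16 prior degrees of freedom). Tests are two-sided, adjusted by Benjamini and Hochberg over all genes, and called under 0.05. Errors are SE of this fit. The procedure was tested on simulated data. DESeq2 1.42.0 was an alternative and gave 2130 genes no adjusted p. Tables and plots used Python 3.11.15, pandas 2.3.3 and matplotlib 3.10.9.

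The members and the 56 gene lists (40 pathways, 16 cell type lists, some sharing members) were chosen with earlier results of these data known. The rule for naming genes took the 15 largest differences per direction among called genes whose mean log2 CPM reached 1, whose groups did not overlap and whose symbols are not predicted or RIKEN names, up to 5 called members of a list with the smallest p, up to 2 against its majority direction, or its member with the smallest p where none is called, and the 10 smallest p-values of the difference between MI and sham. Since edgeR called none, that rule was applied to DESeq2's calls, a step chosen after the counts were seen. Also chosen after seeing the data were the description by non-overlap, the DESeq2 fits with other libraries or covariates, the scaling to library totals, the 16 genes called in each DESeq2 fit with 1 library left out, the promoters printed and the list members named beyond the rule. Alternatives planned from the start were RLE size factors, no filter, DESeq2, the 6 libraries of one surgery, a replicate block, a covariate for Y-linked reads (Ddx3y, Eif2s3y, Kdm5d and Uty at 10 CPM or more together) and leaving out each library. Counting errors in these reads, which carry no molecular identifiers, are not given apart from the spread between libraries. Some genes that these rules name are not reported here.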

Additional observations from a re-analysis of the deposited data

How the results depend on the processing

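In edgeR the counts after MI stayed at 0 higher and 0 lower with RLE size factors, without the filter, with the replicate block and with Y-linked reads as a covariate. With the 6 MI libraries alone 1 gene was lower (Postn), and leaving out 1 library gave 0 to 1 higher and 0 to 2 lower, the calls coming without Cre-positive sham replicate 2 (Pcp4l1 higher at an adjusted p of 0.0136, Postn and Adam12 lower at 0.0136 and 0.0383). DESeq2 after MI called 87 higher and 90 lower, 456 and 486 with the 6 MI libraries, 47 and 11 with the Y-linked covariate, 49 and 28 with the replicate block, and 15 to 364 and 7 to 381 with 1 library left out. Its low values came without Cre-positive MI replicate 2 (15 and 7), Cre-negative MI replicate 1 (21 and 9) or 2 (21 and 22) and Cre-positive MI replicate 1 (33 and 15). Its high values came without Cre-positive sham replicates 1 (173 and 205) and 2 (364 and 381). The cause was not tested.

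After sham surgery edgeR called 0 higher and 7 lower, and 0 lower with the 6 sham libraries. With 1 library left out it called 0 to 2 higher, the 2 coming without Cre-positive replicate 3, and 3 to 8 lower, the 3 coming without Cre-negative replicate 1. DESeq2 called 11 and 28, 0 and 16 with the 6 sham libraries, 1 and 22 with the covariate, 5 and 29 with the replicate block, and 4 to 133 and 21 to 111 with 1 library left out (10 and 43 without Cre-positive sham replicate 2). For the difference between MI and sham, edgeR called 2 higher without the filter (Tnc and Cthrc1) and 0 to 1 higher and 0 lower with 1 library left out, the 1 coming without Cre-negative sham replicate 2. DESeq2 called 21 and 13, 20 and 11 with the covariate, 18 and 5 with the replicate block, and 8 to 92 and 2 to 97 with 1 library left out (66 and 37 without Cre-positive sham replicate 2). The fit with 6 libraries could not give this difference.

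Same-numbered MI libraries deviated together with correlations of 0.328, 0.0279 and 0.3, and sham libraries with -0.0802, -0.129 and 0.233, so the numbers were not taken to pair the samples, although 3 of 3 Cre-positive MI libraries correlated best with their own number. The replicate block left the edgeR counts after MI at 0, while DESeq2's calls went from 87 higher and 90 lower to 49 and 28.

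Genes without overlap were 1636 higher and 2081 lower under TMM, 1653 and 2068 under RLE, 1004 and 2906 under library totals, and 2418 and 2818 without Cre-positive MI replicate 1, where fewer libraries have to separate. Of 199 genes followed over all alternatives, 5187 values kept their side of the threshold, 1034 passed it only in the alternative and 6 turned sign. These were Yap1 (-0.04 in edgeR and in DESeq2 without Cre-negative MI replicate 1, and up to 0.05 without replicate 2), Col8a2 (0.09 without Cre-positive and 0.17 without Cre-negative MI replicate 2, down to -0.37 without Cre-negative MI replicate 1) and Wwtr1 (0.01 in edgeR and 0.02 in DESeq2 with the covariate). Of the medians of the 56 lists 895 moved by no more than 1 SD of the list's mean log2 level over the 3 Cre-negative MI libraries and 113 by more.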
